A study of Mus musculus with 122 samples.

Results

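The 4 designs of a mitochondrial base editor, aimed at the same pair of cytosines in mouse MT-Nd3, were compared in 18 NIH/3T3 cultures, out of 122 samples in the whole series. The cultures were taken as the rows of the deposited screen table, matched to the sample labels by their sequencing identifiers. A DdCBE (DddA-derived cytosine base editor) is made of 2 proteins. Each has a TALE domain, which binds a chosen DNA site, and carries one fragment of the split bacterial deaminase DddAtox. The fragments form an active deaminase when both proteins are bound on either side of a short spacer, where cytosines, usually those that follow a thymine, become uracil and are copied as thymine. An attached inhibitor of uracil glycosylase keeps the uracil from being removed. MT-Nd3 encodes a membrane subunit of complex I, the first enzyme of the respiratory chain, and codon 40 lies in a loop of that subunit that is involved in the transition of complex I between its active and deactive states.

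NIH/3T3 is an established line of mouse embryonic fibroblasts. The active cultures comprised 2 for each of 4 pairs, the inactive cultures 2 for each pair with a catalytically dead deaminase, and the vehicle cultures 2 without editor. All were labelled 1 week after the intervention. Both plasmids of a pair were delivered by transient transfection, cells positive for both fluorescent markers were sorted at 24 h, and DNA was taken after recovery, at 7 days, so each value is an average over a sorted pool. Pair 1 carried 1333C on the light (L) strand protein and 1333N on the heavy (H) strand protein, where 1333 or 1397 is the residue at which DddAtox is split and N or C is the N- or C-terminal fragment. Pair 2 had the same split with the fragments exchanged (L 1333N, H 1333C). Pair 3 carried L 1397C and H 1397N, and pair 4 carried L 1397N and H 1397C. The TALE domains were the same throughout, so the 4 pairs cross the split site with the strand that received each fragment.

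The target sequences are shown because the editing readouts are read from them. ND3 spans positions 9459 to 9806 of the mouse mitochondrial genome (GRCm38, RefSeq), on the strand written as the reference. The L-strand protein binds MT:9549-9564 and the H-strand protein MT:9584-9599, on either side of the 19 bp spacer at MT:9565-9583, which lies wholly within the coding sequence. The first line is the L-strand site and the second the H-strand site on its own strand. The third is the spacer on the reference strand, with the 5 base pairs of the table in capitals.
L-strand TALE site: tcagaaaaagcaaatc
H-strand TALE site: tgcagagcttgtaggg
unedited spacer: catatGaatgcGGattCGa

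The cytosines are numbered from the L-strand end of the spacer. C6, C12, C13 and C18 lie on the H strand and so appear as G in the line above, and C17 lies on the reference strand. C6, C13, C17 and C18 each follow a thymine on their own strand, whereas C12 follows C13. C12 (position 9576) lies 11 bases from the L-strand site and 7 from the H-strand site, and C13 (position 9577) 12 and 6. C6 (position 9570) lies nearer the L-strand site, 5 bases from it and 13 from the H-strand site. C17 and C18 lie at the other end, 2 bases and 1 base from the H-strand site.

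Codon 40 is GGA, glycine. Editing both C12 and C13 gives AAA (G40K, lysine), C13 alone gives GAA (G40E, glutamate), and C12 alone gives AGA, a stop in the vertebrate mitochondrial code (G40*). Editing of C6 turns codon 38 from GAA to AAA (E38K). The spacers below show these outcomes, with the edited bases in capitals.
G40K spacer: catatgaatgcAAattcga
G40E spacer: catatgaatgcgAattcga
G40* spacer: catatgaatgcAgattcga
E38K spacer: catatAaatgcggattcga

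The table lists the edited reads at each cytosine as a whole percent, so rounding alone may move a value by 0.5 points. It gives the codon outcomes as shares of the reads edited in codon 40, to 2 decimals. In most of the active hearts described below, listed C12 and C13 percents differed from base counts by more than 0.5 points. Ranges and separations given over rounding therefore cover rounding only. The number of reads behind each culture is unknown, and neither counting intervals nor detection limits are given. Whether the cultures of one pair were transfected separately is not stated in the sources used here, and p-values then measure only the spread between these samples, which may be technical.

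The background was listed at 0 throughout. In the 8 inactive and 2 vehicle cultures, all 50 listed values, 5 cytosines in each of 10 cultures, were 0, and no codon shares were listed. C17 and C18, the cytosines beside the H-strand site, were also listed at 0 in all 8 active cultures. Editing in the screen was therefore listed at C6, C12 and C13 alone, and only with active deaminase. A listed 0 is a rounded value and does not exclude a level below the step of the table. In the active hearts described below, sites listed at 0 were at 0.0125% (C17) to 0.374% (C18) by base counts. Whether the control cultures held such levels was not tested. Because codon shares were not listed for the controls, the codon pattern of unedited DNA could not be set beside that of pair 4, whose editing was close to the lowest step of the table.

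With the 1333 split, exchanging the fragments left C13 editing high and lowered C12 editing. Pair 1 was listed at 42% and 40% for C12 and at 43% and 41% for C13, and pair 2 at 19% and 17% for C12 and at 34% and 32% for C13. Pair 1 thus exceeded pair 2 by 23.0 points at C12 and by 9.00 points at C13, on means of 2 cultures. Both gaps were larger than the 2 points that separated the cultures within a pair. The gap between C13 and C12 was 1 point in each pair 1 culture and 15 points in each pair 2 culture.

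With the 1397 split, the exchange removed most editing at both cytosines. Pair 3 was listed at 27% and 26% for C12 and at 31% and 29% for C13, whereas both pair 4 cultures were listed at 0 for C12 and 1% for C13. Pair 3 exceeded pair 4 by 26.5 points at C12 and by 29.0 points at C13. At C13 the exchange thus made a difference of 9.00 points with the 1333 split and of 29.0 points with the 1397 split. The difference between these differences was not tested.

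**Figure D1:**
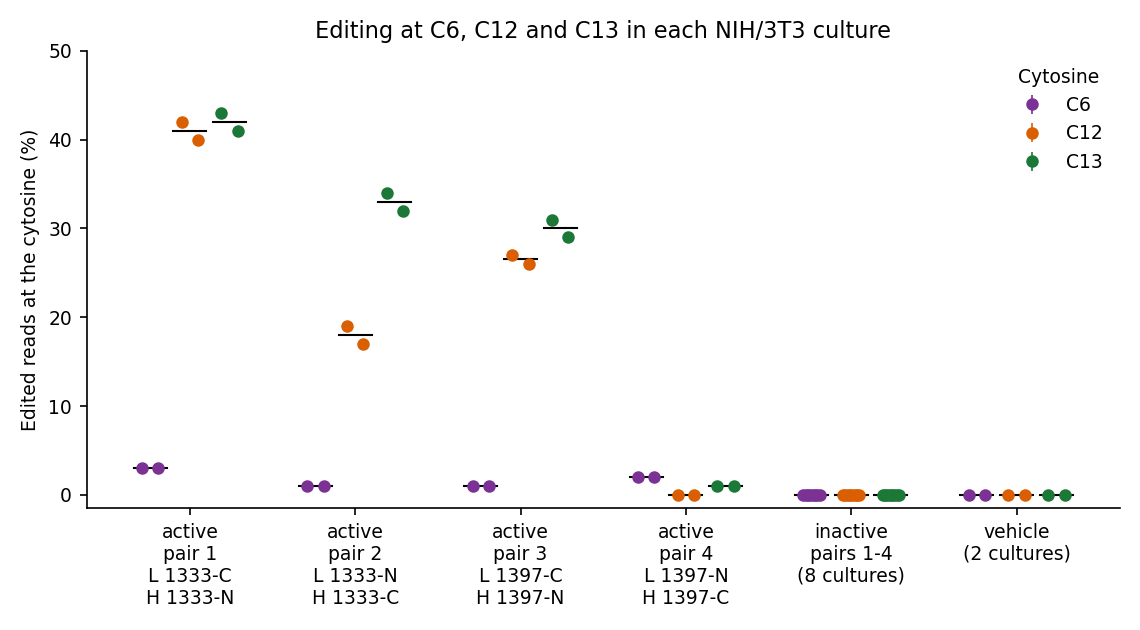
Edited reads (%) at C6, C12 and C13 in each culture, grouped by pair, with the fragments on the L and H strand proteins named under each active pair. Points are cultures, thin bars on the points are the 0.5 points that rounding allows, and black lines are means. C12 and C13 lie together in pair 1, 15 points apart in pair 2 and near 0 in pair 4, and every inactive and vehicle culture lies at 0.

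The listed levels put pair 1 above the others at both target cytosines. At C12, the order was pair 1, pair 3, pair 2 and pair 4, and no neighbours in that order overlapped, even when each value was allowed to move by 0.5 points (6 of 6 pairwise comparisons separate). At C13, pairs 2 and 3 exchanged places, the order being pair 1, pair 2, pair 3 and pair 4. The C13 values of pairs 2 and 3 lay 1 point apart at their nearest and touched once rounding was allowed, so 5 of 6 comparisons stayed separate. With 2 cultures against 2, the design allows no exact permutation p below 0.333, and p was 0.333 for every one of these separate comparisons (two-sided).

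The ratio of C12 to C13 editing was obtained from the codon shares, as all reads with C12 edited (G40K and G40*) over all reads with C13 edited (G40K and G40E). This ratio does not use the whole percents, and it gave a value for pair 4, whose C12 was listed at 0. It was 0.989 and 0.982 in the pair 1 cultures, 0.557 and 0.550 in the pair 2 cultures, 0.886 and 0.881 in the pair 3 cultures, and 0.230 and 0.206 in the pair 4 cultures. The means were 0.985 ± 0.00477, 0.553 ± 0.00536, 0.883 ± 0.00309 and 0.218 ± 0.0166 (SD, n = 2 each) for pairs 1 to 4. C12 was edited about as often as C13 with pair 1, and at 0.218 times the rate of C13 with pair 4. No pair overlapped another, and the largest gap between cultures of a pair was that of pair 4. In all 8 cultures, the ratio from the shares lay within the range that the rounded percents allowed. With pair 4 that range was 0 to 1, so the check says little about its ratio.

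Pairs 1 and 3, with the C-terminal fragment on the L-strand protein, had the higher ratios with either split. The ratio of pair 1 was 1.78 times that of pair 2, and the ratio of pair 3 was 4.05 times that of pair 4. Among the pairs with that orientation, pair 1 was 1.12 times pair 3. Among those with the N-terminal fragment there, pair 2 was 2.54 times pair 4. On the log2 scale, the 4 cultures with L-strand C averaged -0.10 ± 0.09 and the 4 with L-strand N -1.53 ± 0.78 (SD, n = 4 each), a difference of 1.43, and the groups did not overlap (two-sided exact permutation p = 0.0286, the smallest that 4 against 4 allow, adjusted p = 0.0914 over 16 tests).

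Of the 16 tests, 8 readouts by orientation and 8 by split, none passed an adjusted p of 0.05. Of these, 5 were fully separated and had the same p of 0.0286 and adjusted p of 0.0914 (exact permutation test). By orientation, with L-strand C before L-strand N, these were C12 editing (33.8% ± 8.42 and 9.00% ± 10.4), the G40K share (87.7% ± 5.47 and 33.5% ± 22.3), the G40E share (9.36% ± 5.59 and 62.5% ± 19.6), and the ratio of C12 to C13 given above. By split, it was C13 editing alone, at 37.5% ± 5.32 with 1333 and 15.5% ± 16.8 with 1397 (SD, n = 4 each), where the groups touched once rounding was set against the difference (exact permutation p = 0.0571). Much of these differences came with pair 4. Without its 2 cultures, C13 editing by split differed by 7.50 points, where it had differed by 22.0, and by orientation C12 editing differed by 15.8 points in place of 24.8 and the log2 ratio by 0.75 in place of 1.43. The G40K share then differed by 34.8 points in place of 54.1, and the G40E share by -36.2 points in place of -53.2 (exact permutation p = 0.0667 to 0.133 for these 5). C13 editing by orientation overlapped, at 36.0% ± 7.02 with L-strand C and 17.0% ± 18.5 with L-strand N (exact permutation p = 0.171, adjusted p = 0.343). C12 editing by split overlapped as well, at 29.5% ± 13.3 with 1333 and 13.3% ± 15.3 with 1397 (exact permutation p = 0.171, adjusted p = 0.343). The tests of the G40K share, the G40E share and the ratio are not independent, because the shares are parts of one whole and the ratio is computed from them. Each level holds only 2 pairs, and cultures of a pair share their plasmids, so p-values over cultures can be too small as statements about the designs.

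**Figure D2:**
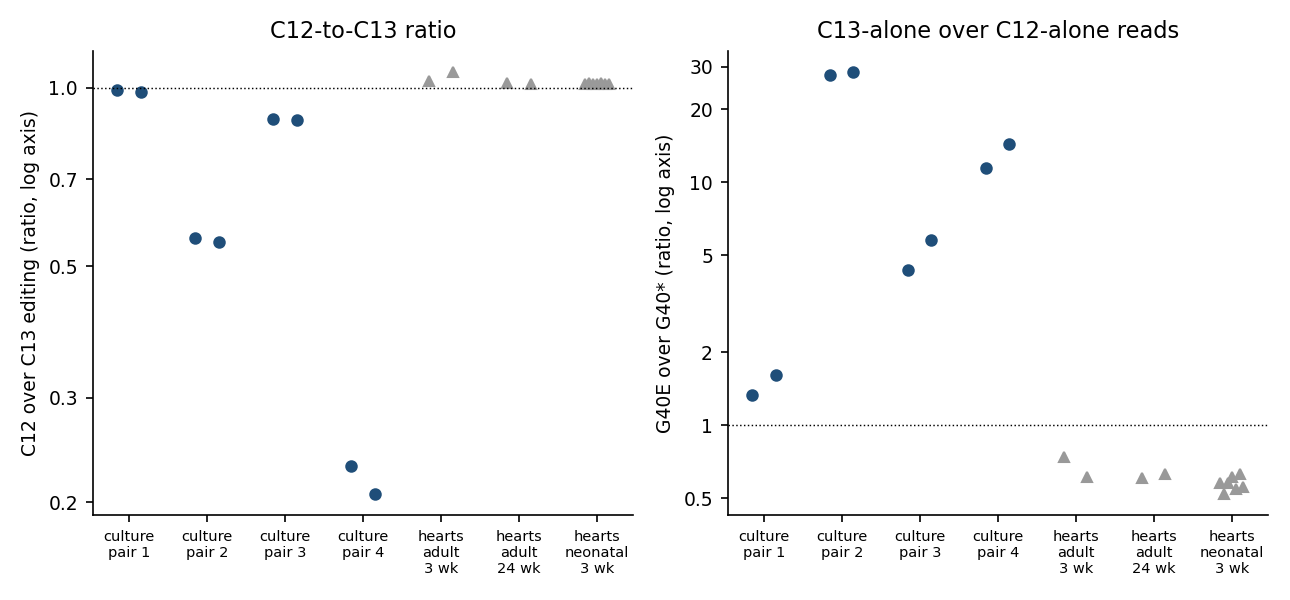
Ratio of C12 to C13 editing (left) and of C13-alone (G40E) to C12-alone (G40*) reads (right), both from the codon shares and on log axes. Circles are active cultures by pair, triangles are active hearts by age at injection and week, and the dotted line marks equal levels. Pair 4 has the lowest C12-to-C13 ratio (0.230 and 0.206), and on the right all 8 cultures lie above 1, whereas all 11 hearts lie below it.

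The codon shares, from which the ratio was computed, divided the pairs in the same way and are not a separate result. G40K, which needs both edits, made up 92.28% and 92.49% of the edited reads of pair 1 and 82.32% and 83.59% of those of pair 3. It made up 53.19% and 52.47% with pair 2 and 14.55% and 13.88% with pair 4. G40E, the product of C13 editing alone, made up 4.41% and 4.63% with pair 1, 45.19% and 45.92% with pair 2, 14.38% and 14.01% with pair 3, and 78.58% and 80.51% with pair 4. For both outcomes each pair was separate from the other 3. The exchange of fragments moved the G40K share by 39.6 points with the 1333 split (pair 1 minus pair 2) and by 68.7 points with the 1397 split (pair 3 minus pair 4).

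The premature stop, G40*, was the least frequent outcome in every active culture. It made up 3.31% and 2.87% of edited reads with pair 1, 1.63% and 1.61% with pair 2, 3.31% and 2.41% with pair 3, and 6.87% and 5.61% with pair 4. Pairs 1 and 3 overlapped, while pair 2 lay below and pair 4 above all others. The share of pair 4 is one of about 1% of reads, and the pattern at that level in unedited DNA was not listed.

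As percents of all reads, the outcomes ranked differently, because the pairs differed in how much they edited. The reads edited in codon 40 were computed from the listed C13 percent and the share of edited reads that carry C13. They came to 44.5% and 42.2% of all reads with pair 1, 34.6% and 32.5% with pair 2, 32.1% and 29.7% with pair 3, and 1.07% and 1.06% with pair 4. Pairs 2 and 3 were separate as computed but overlapped once rounding of the C13 percent was allowed, pair 2 being 0.983 to 1.20 times pair 3. The same total computed from the C12 percent overlapped this one within rounding in all 8 cultures. With pair 4, listed at 0 for C12, rounding allowed totals of 0 to 2.33% and 0 to 2.57%, so overlap there says little.

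G40K then reached 41.0% and 39.0% of all reads with pair 1, 18.4% and 17.1% with pair 2, 26.4% and 24.8% with pair 3, and 0.156% and 0.147% with pair 4. Pair 2 therefore gave less G40K than pair 3, the difference being -7.89 points, although their edited totals overlapped over rounding. Pair 2 gave the most G40E, 15.6% and 14.9% of all reads, which was 18.0 times the level of pair 4 (0.844% and 0.853%), or 11.5 to 37.6 times over the rounding of the C13 values. Thus pair 4, in which most edited reads were G40E, had less G40E DNA than any other pair, pair 1 being at 1.96% and 1.95% and pair 3 at 4.61% and 4.16%. Reads with the stop codon came to 1.47% and 1.21% with pair 1, 0.563% and 0.524% with pair 2, 1.06% and 0.716% with pair 3, and 0.0738% and 0.0594% with pair 4. On this scale pair 4 had the fewest stop-codon reads, although it had the highest share among edited reads.

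**Figure D3:**
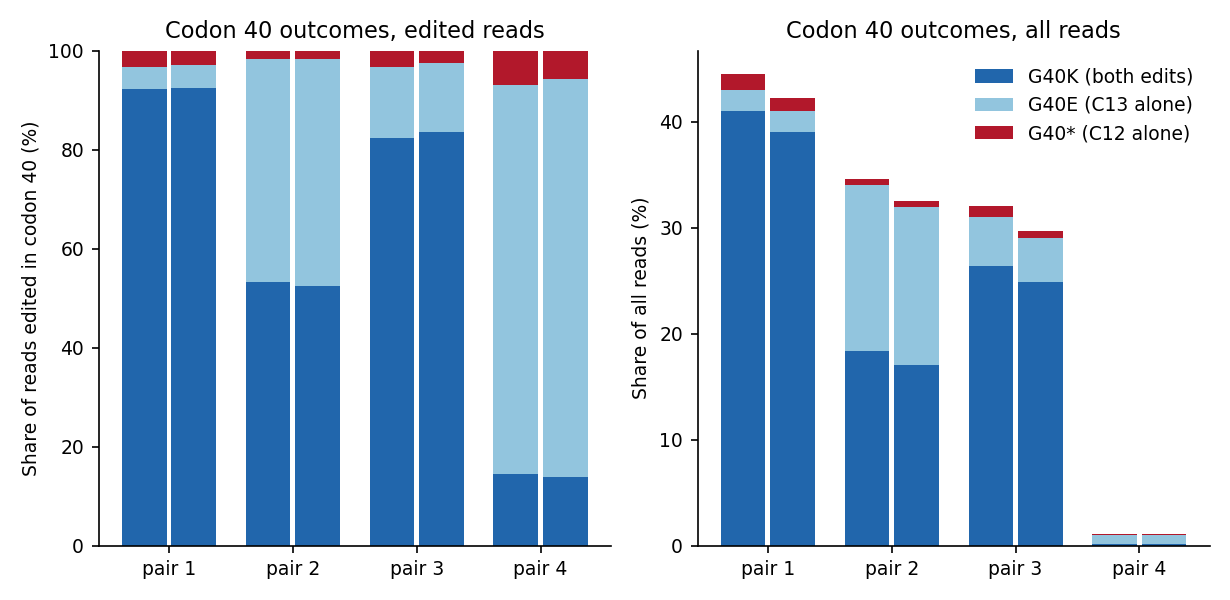
Codon 40 outcomes in each active culture, 2 bars a pair, as shares of the reads edited in codon 40 (left, %) and of all reads (right, %). Dark blue is G40K, light blue G40E and red G40*. G40E fills most of the pair 4 bars on the left, but on the right these bars reach only 1.07% and 1.06%, and pair 2 has the most G40E.

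The edits at C12 and C13 occurred on the same reads far more often than their separate levels over the sorted pool would give. Reads from cells edited to different extents cannot be told apart in such a pool. If the edits fell on reads independently, the share of reads with both would be the product of the 2 levels, 18.3% and 16.5% for pair 1, 6.44% and 5.63% for pair 2, and 8.51% and 7.41% for pair 3. Reads with both edits were 2.31 ± 0.0853 times that product with pair 1, 2.94 ± 0.126 times with pair 2 and 3.23 ± 0.177 times with pair 3 (SD, n = 2 each). With pair 4 the factor was 69.6 ± 2.33 (SD, n = 2) as listed, and 45.3 to 142 over the rounding of its C13 value. This factor is bounded by how much each site was edited, so the pairs were compared by the odds ratio, the odds of a C12 edit among reads with a C13 edit over those odds among reads without. Its log2 was 9.62 and 9.90 with pair 1, 7.10 and 7.20 with pair 2, 8.52 and 9.19 with pair 3, and 7.96 and 8.16 with pair 4. All 4 pairs showed linkage, strongest with pair 1 and weakest with pair 2 as computed from the listed C13 percents. In hearts listed at 10% or more for C13, described below, the listed percent was 1.20 to 1.48 times that from base counts. Whether such a difference in the cultures would change the order of the pairs was not tested. The order of pairs 3 and 4 was not resolved once the rounding of C13 was allowed, which gave pair 4 a range of 7.36 to 9.17.

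The share of reads with one edit that also carried the other depended on which edit was taken first. The quotient of these shares is the ratio of C12 to C13 editing given above, so their contrast restates that ratio. Of reads with C12 edited, 96.5% and 97.0% also carried C13 with pair 1, 97.0% in both cultures of pair 2, and 96.1% and 97.2% with pair 3. These 3 pairs differed by less than 0.5 points in their means, and pair 3 overlapped both of the others. Pair 4 was lower, at 67.9% and 71.2%, but its C12-alone reads were only 0.0738% and 0.0594% of all reads. The pattern at that level in unedited DNA was not listed. In the hearts edited at 1% to 2% with pair 1, described below, this share was also lower, at 90.1% and 84.8%. Whether a low level of editing plays a part in the pair 4 value was not tested. Of reads with C13 edited, in contrast, 95.4% and 95.2% also carried C12 with pair 1, 54.1% and 53.3% with pair 2, 85.1% and 85.6% with pair 3, and 15.6% and 14.7% with pair 4, with no overlap between pairs. In pairs 1 to 3, a C12 edit was thus accompanied by a C13 edit at nearly the same rate, while the share of C13 edits accompanied by C12 ranged over 42.1 points.

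**Figure D4:**
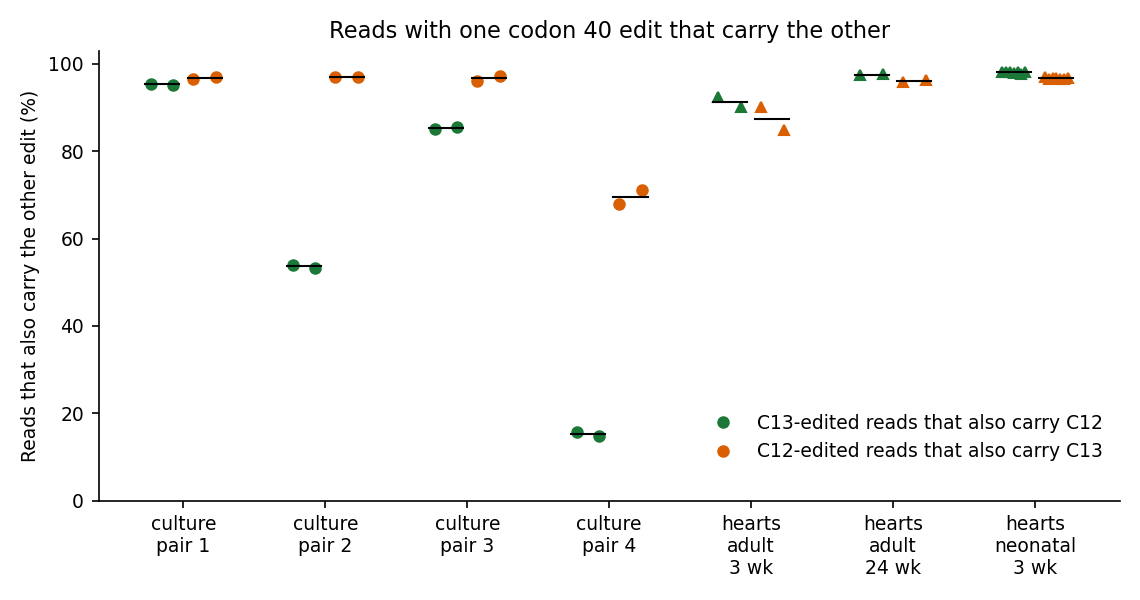
Share of C13-edited reads that also carry C12 (green, %) and of C12-edited reads that also carry C13 (orange, %). Circles are active cultures by pair, triangles are active hearts with pair 1, and black lines are means. The orange points of pairs 1 to 3 lie between 96.1% and 97.2%, while the green points range over 42.1 points in the same pairs.

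C6, the cytosine nearer the L-strand site, was edited at a low level by all 4 pairs, and its level did not follow that of the target. It was listed at 3% in both pair 1 cultures, 1% in both pair 2 cultures, 1% in both pair 3 cultures and 2% in both pair 4 cultures. Pair 4 was thus listed at 2% for C6, against 1% for C13 and 0 for C12. It was the only pair listed with C6 above the targets, and rounding alone allows its C6 and C13 to be equal. The ratio of C6 to C13 was 0.0698 and 0.0732 in the pair 1 cultures, 0.0294 and 0.0312 in the pair 2 cultures, 0.0323 and 0.0345 in the pair 3 cultures, and 2.00 in both pair 4 cultures. With rounding allowed, it was 0.0575 to 0.0864 with pair 1, 0.0145 to 0.0476 with pair 2, 0.0159 to 0.0526 with pair 3, and 1.00 to 5.00 with pair 4. Over rounding alone, pairs 1 and 4 were therefore separate from all others in this ratio, and pairs 2 and 3 were not separate from each other. The gap between pairs 1 and 3 was narrow, 0.0575 against 0.0526. In some hearts of mice given pair 1, described below, listed C6 percents differed from base counts by more than rounding. Separation of pair 1 from pairs 2 and 3 beyond rounding was therefore not established, nor was C6 above C13 with pair 4. In C6 editing itself, only pair 1 against pair 2 and pair 1 against pair 3 (each 3.00 times) stayed separate over rounding.

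The direction of the C6 difference depended on the split. With the 1333 split, the culture values with L-strand C exceeded those with L-strand N by 2.00 points, whereas with the 1397 split they were lower by 1.00 point, a difference that rounding alone could bring to 0. Neither orientation nor split alone separated C6 editing, which averaged 2.00% ± 1.15 with L-strand C and 1.50% ± 0.577 with L-strand N, and the same values with 1333 and 1397 (SD, n = 4 each, exact permutation p = 0.657, adjusted p = 0.657 for each factor). As background, the catalytic glutamate of DddAtox lies in the C-terminal fragment of the 1333 split and in the N-terminal fragment of the 1397 split. The pairs whose L-strand protein carried the catalytic residue were thus pairs 1 and 4, listed at 3% and 2% for C6, and those whose H-strand protein carried it were pairs 2 and 3, both listed at 1%. This grouping was chosen after the values were seen and was not tested.

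**Figure D5:**
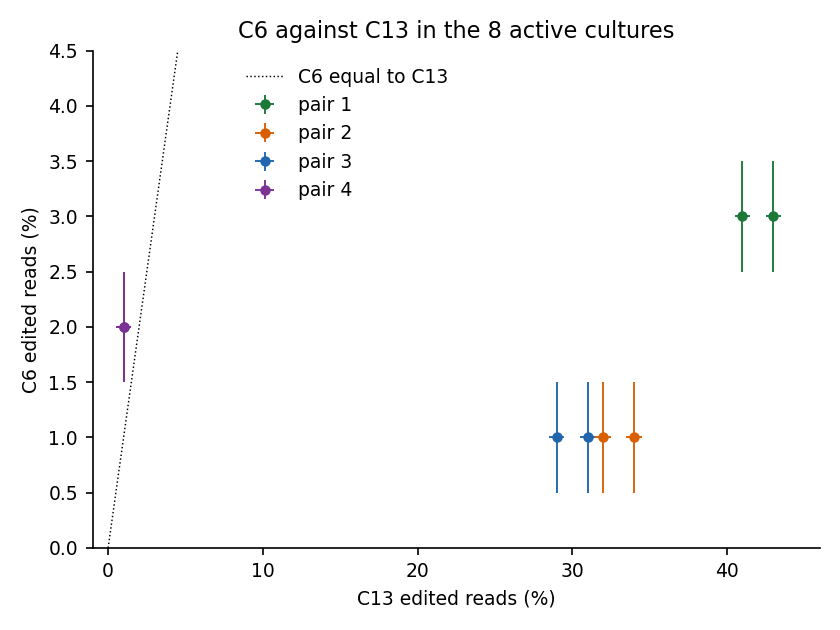
C6 editing (%) against C13 editing (%) in the 8 active cultures, coloured by pair, with bars for the 0.5 points that rounding allows. The dotted line marks equal levels. Pair 4 (both cultures at the same point) lies above the line at 2% C6 and 1% C13, and pairs 2 and 3 lie together at 1% C6.

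Pair 1 was also the design delivered to mice with adeno-associated virus, which allowed the same protein pair to be read in another setting. The 11 active hearts comprised 2 at 3 weeks and 2 at 24 weeks after injection of adults aged 8 weeks, and 7 at 3 weeks after injection of newborns. Cell type, delivery and time after delivery all differ between cultures and hearts, and their parts in any difference cannot be told apart. The ratio of C12 to C13 editing was 0.989 and 0.982 in the pair 1 cultures, below that of the hearts, which ranged between 1.01 and 1.06 with a median of 1.02, and the groups did not overlap by these shares. The mean difference, cultures minus hearts, was -0.05 on the log2 scale (two-sided exact permutation p = 0.0128, the smallest that 2 against 11 allow, adjusted p = 0.0192 over 3 tests). With the ratio of the hearts taken from base counts of the same libraries, one heart at 3 weeks after adult injection was at 0.939, below both cultures, so the groups overlapped. This heart had little editing, 0.960% at C12 and 1.02% at C13 by counts, and 0.274% at C18, which was listed at 0. The other hearts, at 1.005 to 1.025 by counts, lay above both cultures. With the base counts, the difference was -0.03 on the log2 scale and no longer passed the threshold (exact permutation p = 0.179, adjusted p = 0.269).

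By the codon shares, the order of the single edits was reversed between the settings. This order restates whether the ratio of C12 to C13 lies below or above 1, so it is not a separate result. By base counts, one heart at 3 weeks after adult injection had more C13 than C12 editing (1.02% and 0.960%), the order of the cultures. In the pair 1 cultures, C13-alone reads were 1.33 and 1.61 times C12-alone reads, whereas in the hearts they were 0.519 to 0.739 times, with a median of 0.603. The difference, cultures minus hearts, was 1.29 on the log2 scale (p = 0.0128 by the same exact permutation test, adjusted p = 0.0192). G40E was 4.41% and 4.63% of edited reads in the pair 1 cultures, against 1.72% to 2.14% in the hearts injected as newborns. G40* was 3.31% and 2.87% in the cultures, against 2.99% to 3.39% in those hearts, so that one culture lay within their range and the other below it.

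The G40K share of the pair 1 cultures, 92.28% and 92.49%, lay inside the range of the hearts, 77.57% to 95.29% with a median of 94.8% (exact permutation p = 1.00, adjusted p = 1.00). The hearts at 3 weeks after adult injection, which were edited at 1% to 2%, had the lowest shares, 84.0% and 77.57%. Against the 7 hearts injected as newborns, the cultures were lower by 2.51 points (exact permutation p = 0.0278, adjusted p = 0.0278 over 3 tests). That p is the smallest that 2 against 7 allow. This subset was an alternative to the main test, and the adjustment does not cover the other alternatives. The 2 hearts at 3 weeks after adult injection also had the highest G40* shares among the hearts, 9.20% and 13.91%. Pair 4, edited at about 1%, had the highest among the cultures. Whether the level of editing plays a part in these shares was not tested.

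The listed percents of the hearts could be set beside base counts of the same libraries. In the 9 hearts listed at 10% or more for C13, the listed percent was 1.20 to 1.48 times the percent from the counts at C13 and 1.19 to 1.54 times at C12. At C6 it was 0.990 to 2.20 times, a wider range than at the targets, and the C6 values and C6-to-C13 ratios of the cultures rest on such listed percents. The percents of all reads, the factors over the product of the levels and the odds ratios of the cultures rest on listed C13 percents. The ratio of C12 to C13 from those counts was 0.939 to 1.03 over the 11 hearts. Base counts of the cultures were not analysed here, and whether the listed culture percents differ from their counts in the same way was not tested. The codon shares and the ratios made from them do not use the listed percents.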

How the data were processed

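DNA from NIH/3T3 cultures was amplified by long-range PCR and then over MT-Nd3, and sequenced as amplicons. According to the submitters' processing notes and the methods, reads were trimmed with Trim Galore and aligned with Bowtie2 to the mitochondrial genome of GRCm38, bases were counted with SAMtools mpileup (mapping quality 30) and VarScan, and codon outcomes with cutadapt (10 bases, no mismatch) and SAMtools flagstat. No tool version is stated there. For each culture the authors deposited whole percents at 5 cytosines and, among edited reads, the percent of each of 3 codon outcomes. Heart base counts, in the authors' deposited position sheets, were used to set the listed heart percents and ratios beside them. PCR reads without molecular identifiers are not independent molecules.

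Ratios and conditional shares were computed from codon shares, and percents of all reads from shares and the C13 percent. Groups were compared by their means (ratios as log2) with exact permutation tests, two-sided, with Benjamini-Hochberg adjustment over 16 tests among cultures and over 3 against hearts, at a threshold of 0.05. The methods name an analysis of variance with Dunnett's test, which was not used because groups are small. The text names the 5 cytosines and 3 outcomes in every active culture. The members, readouts and tests were chosen with earlier results of these data known. Alternatives were left-out cultures, ranks, restricted permutation, no pair 4, other scales and rounding. Permutation within sets of culture names and heart ratios from base counts were added after the data were seen. The test and linkage functions were checked on simulated data. Python 3.11.15, NumPy 2.4.6, SciPy 1.17.1, Biopython 1.88 and matplotlib 3.10.9 were used. A second, identical copy of the tables was not used, nor was a count sheet whose name matches both a heart and a culture.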

Additional observations from a re-analysis of the deposited data

Results flagged for a closer look

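There were 4 readouts that, as listed or computed, moved in opposite directions when the fragments were exchanged with one split and with the other, in every culture. The C6 differences of -1 point below were not separate over rounding. In the C6-to-C13 ratio, separation of pair 1 from pairs 2 and 3 was not established beyond rounding. None of these differences between effects was tested. C6 editing with L-strand C minus L-strand N was 2.00 points with the 1333 split and -1 point with the 1397 split, and 1333 minus 1397 was 2.00 points with L-strand C and -1 point with L-strand N. The G40* share with L-strand C minus L-strand N was 1.47 points with the 1333 split and -3.38 points with the 1397 split. G40E as a percent of all reads, with L-strand C minus L-strand N, was -13.3 points with the 1333 split and 3.54 points with the 1397 split, and 1333 minus 1397 was -2.43 points with L-strand C and 14.4 points with L-strand N. The C6-to-C13 ratio with L-strand C minus L-strand N was 0.0411 with the 1333 split and -1.97 with the 1397 split, and 1333 minus 1397 was 0.0381 with L-strand C and -1.97 with L-strand N. Among the 7 hearts injected as newborns, none lay far from the others in the 3 readouts compared with the cultures.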

How the results depend on the processing

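Among the 16 tests of cultures, no alternative brought an adjusted p below 0.05 (lowest 0.0571), and 214 of 228 alternative values kept their direction. Without the 2 cultures of pair 4, 6 differences changed sign: the G40* share by orientation (1.35 points), the C6-to-C13 ratio by orientation (0.69) and by split (0.48), the G40K and G40E shares by split (-10.3 and 10.8 points), and the C12-to-C13 ratio by split (-0.26). As percents of all reads, the G40* share by orientation (0.810 points) and by split (0.465) and the G40E share by split (6.00) changed sign. C6 editing by either factor became -0.50 when rounding was set against it. By mean ranks, the G40* share and the C6-to-C13 ratio by orientation were 0. Leaving out single cultures gave -1.73 to 0.0250 points for the G40* share by orientation, above 0 only without replicate 1 of pair 4.

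Against hearts, the G40K difference (0.258 points over all hearts) was -4.14 by mean ranks, -2.51 against hearts injected as newborns alone and -2.26 points without the adult hearts at 3 weeks, with adjusted p of 0.231, 0.0278 and 0.0182 by exact permutation. Leaving out single samples gave -1.20 to 0.574 points, below 0 when one or the other adult heart at 3 weeks was left out, and -0.0548 to -0.0439 for the log2 C12-to-C13 ratio and 1.16 to 1.43 for the log2 G40E-to-G40* ratio. With heart ratios from base counts, also added later, the log2 C12-to-C13 difference was -0.0318 (adjusted p = 0.269 by exact permutation). The last 2 ratios lost significance without either pair 1 culture (adjusted p up to 0.250), since 1 against 11 cannot reach the threshold. No edited total for pair 4 can be had from its C12 percent, which is listed at 0. The culture names in the titles fall into 2 sets, with 1 culture of each group in each, and the labels do not say what the sets are. In pairs 1 to 3 the same set was higher in 6 of 6 C12 and C13 values, by 1 to 2 points. With these sets as a replicate block, an alternative added after seeing the data, differences were as before and adjusted p was 0.178 or more by exact permutation, the C12-to-C13 ratio by orientation being 1.43. The unknown depth and the whole-percent step limit all values of pair 4 and of C6.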
